A study of Mus musculus with 24 samples.

Results

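The 10 genes described here are marker genes of lung pericytes: Pdgfrb, Cspg4, Rgs5, Higd1b, Postn, Kcnk3, Trpc6, Abcc9, Kcnj8 and Itga1. They were taken by gene symbol, 10 of the 48795 gene identifiers in each of 2 tables of normalised counts, and every library of both tables was used. RNA sequencing was done on lung cells of female Balb/c mice, 8 weeks old, taken 7 days after a dose of 13 Gy aimed at the lungs or after a sham procedure. The depleted mice were irradiated and injected every day with anti-Ly6G antibody, which depletes neutrophils. The irradiated mice were irradiated and given the IgG control antibody, and the sham mice were sham-irradiated and given the IgG control antibody. From each lung, cells lacking CD45 (leukocytes), CD31 (endothelium) and Ter119 (red cells) were sorted by EpCAM into an epithelial fraction (EpCAM+) and a mesenchymal fraction (EpCAM-). Each condition and fraction is represented by 4 libraries, which makes 6 groups and 24 libraries. The written sorting protocol gives CD45 in the position of CD31, while the cell type entry of each sample gives CD31. Neutrophils were depleted by antibody in whole mice and the dose reached every lung cell, so the groups do not single out pericytes.

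Pericytes are mural cells embedded in the basement membrane of capillaries, where they contact the endothelium. Endothelial cells secrete PDGF-B, which binds the receptor Pdgfrb on pericytes and keeps them at the vessel. Pericytes set capillary tone through potassium and calcium channels and through G-protein signals, and in injured lung they are studied as a possible source of matrix-producing cells. Pericytes do not carry EpCAM, so these genes are measured in the mesenchymal fraction as part of its sorted cells. In the epithelial fraction they are read as a gauge of mural RNA carried over, and whether other cells there express them was not tested. In bulk libraries such as these, fewer cells of a type and less RNA per cell cannot be told apart.

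Whole counts recovered from the normalised values are called reads here. Summed over all genes they came to 8159062 to 13373329 per epithelial library and 7366672 to 11408083 per mesenchymal library. A count of 0 allows up to 3 reads by counting error alone, which equals normalised counts of 2.36 to 3.81 (epithelial libraries) and 2.48 to 3.66 (mesenchymal libraries). The mesenchymal sham libraries were of 2 kinds: a sum over 10 smooth muscle genes was 33945 and 31074 in replicates 1 and 2 and 17429 and 16196 in replicates 3 and 4. Several pericyte genes were split in the same way there, so the genes called there against sham are also given without each of these pairs, a choice made after seeing the data. Their part in the results was not tested.

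The surface receptor Pdgfrb (ENSMUSG00000024620) lies on GRCm38 chromosome 18, bases 61045150 to 61085061, plus strand. Cspg4 (ENSMUSG00000032911, chromosome 9, 56865033 to 56899870, plus strand) codes for the NG2 proteoglycan of the pericyte surface. Itga1 (ENSMUSG00000042284, chromosome 13, 114953096 to 115101964, minus strand) codes for an integrin chain that binds collagen together with the chain from Itgb1. Rgs5 (ENSMUSG00000026678, chromosome 1, 169655501 to 169695813, plus strand) speeds up the switching off of G-protein signals. The ATP-sensitive potassium channel of mural cells is built from the pore subunit Kcnj8 (ENSMUSG00000030247, chromosome 6, 142564837 to 142571614, minus strand) and the sulphonylurea-receptor subunit Abcc9 (ENSMUSG00000030249, chromosome 6, 142587862 to 142702315, minus strand). These 2 genes are neighbours on the same strand, with 16247 bases between them. Kcnk3 (ENSMUSG00000049265, chromosome 5, 30588170 to 30625271, plus strand) codes for a background potassium channel, and Trpc6 (ENSMUSG00000031997, chromosome 9, 8544142 to 8680741, plus strand) for a cation channel opened by diacylglycerol. Postn (ENSMUSG00000027750, chromosome 3, 54361109 to 54391037, plus strand) codes for the secreted matrix protein periostin, and Higd1b (ENSMUSG00000020928, chromosome 11, 102835849 to 102838040, plus strand) for a small protein of a family induced by hypoxia. All 10 are annotated as protein coding. The exons of Kcnk3 overlap those of Gm9899 on the opposite strand, which averaged 9.02 in epithelial and 37.4 in mesenchymal libraries. Abcc9 exons overlap the antisense gene 5330439B14Rik, at 0 and 8.22, and Itga1 exons overlap Gm49395 on the same strand. Whether reads were counted by strand is not given in the sources used here, so reads of Kcnk3 and Abcc9 cannot be told apart from those of their partners. For Itga1 and Gm49395 strand would not separate the reads of shared exons, and Gm49395 is not among the gene identifiers measured here.

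In the mesenchymal fraction all 10 genes were measured well above the counting limit. Levels were divided by the summed exon length of each gene, so that genes can be compared within a table. In mesenchymal sham libraries Pdgfrb stood first with a mean normalised count of 703 per kb. Postn with 429 and Abcc9 with 344 per kb followed, with overlapping libraries. Higd1b came next with 144 per kb, and its libraries did not overlap those of either neighbour in the order. Kcnj8 (97.4), Kcnk3 (96.2), Itga1 (76.3), Cspg4 (76.0) and Trpc6 (65.0 per kb) formed a run in which each overlapped the next. Rgs5 was last with 38.8 per kb. In depleted libraries Kcnj8 moved up to the fourth place with 144 per kb, and Trpc6 stood last with 41.96 per kb. The libraries of Kcnj8 overlapped those of Higd1b, the next in order, and those of Trpc6 overlapped those of Rgs5 above it. Pdgfrb was first in all 3 mesenchymal groups, with 519 per kb in depleted and 661 per kb in irradiated libraries.

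The epithelial order was another. In epithelial sham libraries Kcnk3 was first with 19.1 per kb, ahead of Pdgfrb with 15.4 per kb, and the libraries of these 2 genes overlapped. Abcc9 (11.7) and Itga1 (10.6 per kb) followed and overlapped each other, and Postn with 5.93 per kb came next without overlap with either neighbour. Kcnj8 (3.25), Cspg4 (2.88), Higd1b (1.43), Trpc6 (1.35) and Rgs5 (0.92 per kb) overlapped each their neighbour. In depleted epithelial libraries Itga1 was first with 15.998 per kb, and Rgs5 with 7.47 per kb stood above Kcnk3 with 6.41 per kb. The libraries of Itga1 overlapped those of Pdgfrb, the next in order, and those of Rgs5 overlapped those of Kcnk3.

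As a gauge of carried-over mural RNA, each gene was expressed per 1000000 reads of its own library, a scale that allows the tables to be set side by side but was not tested across them. Pdgfrb held 8.04 ± 1.01 reads per 1000000 in epithelial sham libraries and 422 ± 54.4 in mesenchymal sham libraries (SD, n = 4 each), so the epithelial level was 1.91% of the mesenchymal one. For 8 of the 10 genes this percentage lay between 0.866% (Higd1b) and 3.29% (Cspg4) in sham mice. Kcnk3 at 17.2% and Itga1 at 12.04% lay outside that range. The summed smooth muscle list stood at 2.04%, the adventitial fibroblast list at 8.83% and the alveolar fibroblast list at 15.5%. The summed list of 20 other mural genes, described further below, stood at 18.98% in sham, 19.4% in irradiated and 22.7% in depleted mice. In irradiated mice the percentage was 2.43% for Pdgfrb, 8.78% for Rgs5, 7.85% for Kcnk3 and 17.6% for Itga1. In depleted mice it was 2.34% for Pdgfrb, 12.6% for Rgs5, 6.38% for Kcnk3 and 25.8% for Itga1.

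**Figure D1:**
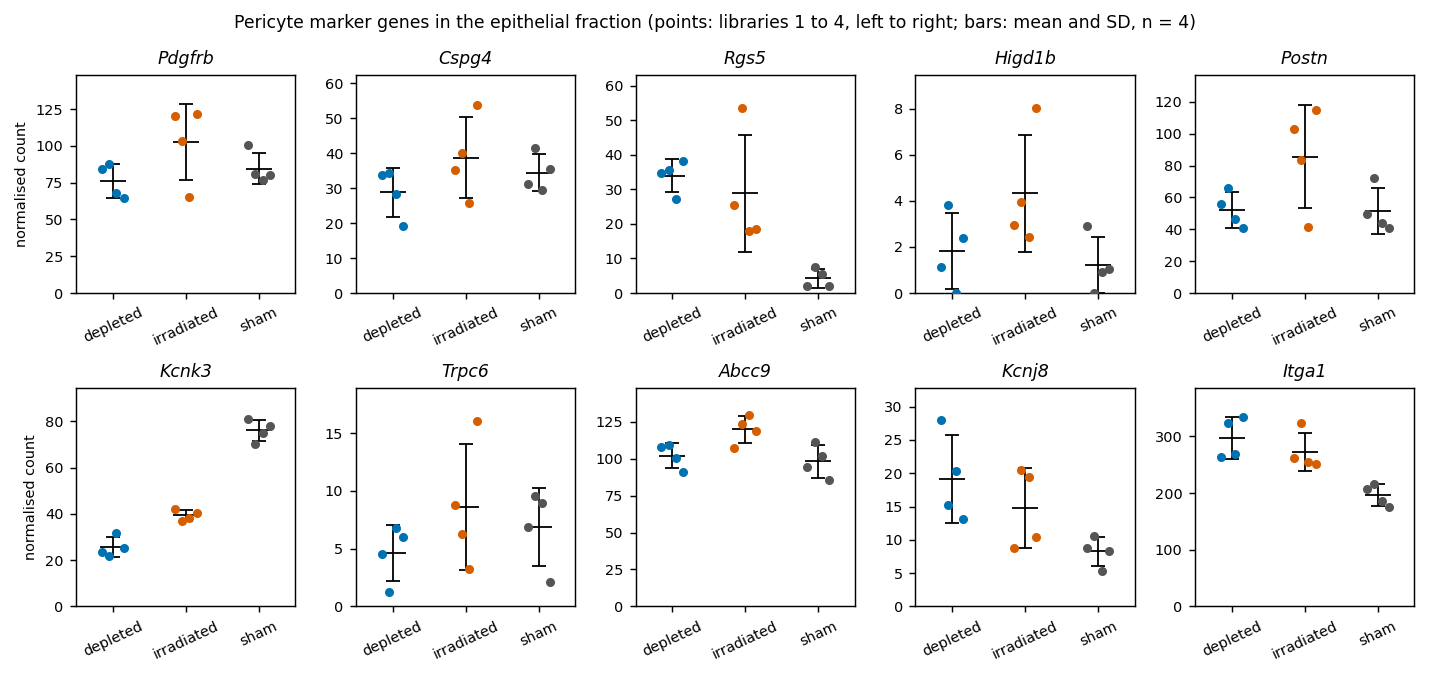
Normalised counts of the 10 genes in the epithelial fraction (vertical axes, 1 panel per gene, each starting at 0) in depleted, irradiated and sham mice. Points are the 4 libraries of a group, and lines and bars are the mean and SD; Rgs5 lies between 17.8 and 53.6 in both irradiated groups and between 1.95 and 7.43 in sham, and Kcnk3 lies at 42.1 or less in both irradiated groups and at 70.0 or more in sham.

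The first epithelial comparison asked what irradiation did to these genes. Rgs5 and Itga1 were higher in irradiated than in sham epithelial libraries, and Kcnk3 was lower. The other 5 genes that could be tested, Pdgfrb, Cspg4, Postn, Abcc9 and Kcnj8, were not called. Higd1b and Trpc6 were too low for the filter of the main test in this table: 0 and 1 of its 12 libraries reached the required normalised count of 10, where 4 were needed. Calls are from limma on log2(normalised count + 1), at a Benjamini-Hochberg adjusted p under 0.05 over 16626 genes, of which 3.14% were called (2.26% higher, 0.878% lower). Rgs5 is left out of the counts, since it passed the filter on low values only through its 8 irradiated and depleted libraries and so had to differ from sham. Of the other 7 genes tested, 2 were called, and edgeR on recovered whole reads also called 2 (3.36% of all genes). An unadjusted p under 0.05 was reached by 5 of the 7, against 14.3% of all genes. Among these 5 were the uncalled Postn, Abcc9 and Kcnj8 (limma unadjusted p = 0.0344, 0.022 and 0.0496). Kcnj8 reached a normalised count of 10 in only 1 sham library.

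The upstream sequence of Rgs5 is shown because Rgs5 had the largest epithelial change of the 10. It is taken from RefSeq promoters on GRCm38.p6, from chr1:169655251-169655500 on the plus strand, ending 1 base before the annotated start of the gene. Capitals mark the only match to the p53 decamer, which is 1 half-site of the DNA-damage factor p53 and not a whole binding site.
Rgs5: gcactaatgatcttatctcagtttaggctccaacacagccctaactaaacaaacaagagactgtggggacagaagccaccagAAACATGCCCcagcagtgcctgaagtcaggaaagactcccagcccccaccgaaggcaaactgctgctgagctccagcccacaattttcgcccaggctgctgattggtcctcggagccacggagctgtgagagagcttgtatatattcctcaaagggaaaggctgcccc
Windows of this length hold that decamer on either strand in 7.13% of 32851 RefSeq promoters. The exact TATA box letters TATAAA had no match on either strand of this window, nor had the RBPJ core TGGGAA or the TEAD core CATTCC. Variants of these letters were not searched. A match is a description of letters and no measurement of binding.

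Rgs5 had normalised counts of 25.4, 53.6, 17.8 and 18.5 in irradiated and 1.95, 7.43, 5.36 and 2.08 in sham epithelial libraries. Every irradiated library lay above every sham library, and replicate 2 of the irradiated mice was the highest. The sham values stand for 2, 7, 6 and 2 reads, so 2 of the 4 libraries were below the 3-read limit. The mean was 28.8 ± 16.9 in irradiated and 4.20 ± 2.66 in sham libraries (SD, n = 4 each), a log2 change of 2.52 ± 0.38 (SE). In a limma fit with no filter on low values, over 31417 genes, the adjusted p was 0.000185. Adding 8 instead of 1 before taking logs gave a log2 change of 1.52, since the gene is close to the limit in sham.

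Kcnk3 had 42.1, 37.0, 38.0 and 40.2 in irradiated and 81.0, 70.0, 75.0 and 78.1 in sham epithelial libraries. The groups were far apart and each was tight. Mean values were 39.3 ± 2.26 and 76.0 ± 4.68 in irradiated and sham libraries (SD, n = 4 each), and the log2 change was -0.93 ± 0.16 (SE, limma, adjusted p = 0.00281). The call held whichever library was left out (limma adjusted p 0.00202 to 0.0144).

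Itga1 had 262, 323, 255 and 252 in irradiated and 208, 216, 186 and 176 in sham epithelial libraries. The groups did not overlap, and irradiated replicate 2 stood above the other 3. The log2 change was 0.47 ± 0.10 (SE, limma, adjusted p = 0.0176). Leaving out sham replicate 3, sham replicate 4 or irradiated replicate 2 ended this call, with a limma adjusted p of up to 0.0894. Kcnk3 and Itga1 were the 2 of the 7 genes whose libraries did not overlap, which was so for 8.83% of all genes tested.

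Postn averaged 85.6 ± 32.3 in irradiated and 51.6 ± 14.2 in sham epithelial libraries (SD, n = 4 each; log2 change 0.66, limma adjusted p = 0.289). Irradiated replicate 3, at 41.3 against 102.8, 83.5 and 114.9 in the other 3, was as low as sham, and without it the limma adjusted p was 0.0142 with a log2 change of 0.97. Abcc9 averaged 119.9 ± 9.25 and 98.3 ± 11.04 in irradiated and sham libraries (log2 change 0.29, limma adjusted p = 0.226). Pdgfrb averaged 102.6 ± 26.1 and 84.5 ± 10.8 (0.24, limma adjusted p = 0.605), and Cspg4 38.8 ± 11.7 and 34.4 ± 5.30 (0.14, limma adjusted p = 0.869). Kcnj8 averaged 14.8 ± 6.01 in irradiated and 8.27 ± 2.18 in sham libraries (0.72, limma adjusted p = 0.347). Both general pericyte surface markers thus had overlapping libraries in this comparison.

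The second epithelial comparison asked whether neutrophil depletion altered the genes in irradiated mice. Limma called 0 of the 8 genes tested, where 0.475% of all genes were called (0.204% higher, 0.271% lower). An unadjusted p under 0.05 was reached by 3 of the 8 (12.4% of all genes), and edgeR called 0 (0.553%). Kcnk3 came closest, with 23.6, 21.6, 31.6 and 25.1 in depleted and 42.1, 37.0, 38.0 and 40.2 in irradiated libraries. Its groups did not overlap, which held for 6.41% of all genes (log2 change -0.62 ± 0.16, limma adjusted p = 0.0993). Without depleted replicate 3, the highest of its group, Kcnk3 was called (log2 change -0.72, limma adjusted p = 0.0385). Rgs5 averaged 33.9 ± 4.81 in depleted and 28.8 ± 16.9 in irradiated libraries, with a log2 change of 0.36 ± 0.38. Postn averaged 52.3 ± 11.2 and 85.6 ± 32.3 (log2 change -0.63, limma adjusted p = 0.381), and Pdgfrb 76.0 ± 11.6 and 102.6 ± 26.1 (-0.40, limma adjusted p = 0.359).

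Between depleted and sham mice Rgs5, Kcnj8 and Itga1 were higher and Kcnk3 was lower in the epithelial fraction. Without Rgs5, again left out of the count, 3 of 7 tested genes were called, against 11.3% of all genes (6.52% higher, 4.76% lower). An unadjusted p under 0.05 was also reached by 3 of the 7 (24.7% of all genes), 3 had no overlap between the groups (16.7%), and edgeR called 3 (10.8%). This comparison uses the same sham libraries as the first, so the 2 are not independent. Kcnk3 averaged 25.5 ± 4.33 in depleted and 76.0 ± 4.68 in sham libraries (log2 change -1.55 ± 0.16, limma adjusted p = 7.12e-06). Rgs5 had 34.8, 35.6, 27.1 and 38.3 in depleted libraries, all above the highest sham value of 7.43 (log2 change 2.88 ± 0.38, and 1.799 after adding 8; limma adjusted p = 1.21e-05 in the fit with no filter). Itga1 had 264, 323, 269 and 335 in depleted libraries, above the highest sham value of 216 (log2 change 0.59 ± 0.10, limma adjusted p = 0.00146).

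Kcnj8 had 28.1, 15.3, 20.3 and 13.2 in depleted and 8.78, 10.6, 5.36 and 8.33 in sham epithelial libraries. The groups did not overlap, but the sham values rest on 6 to 10 reads each, and the gene passed the filter through 4 depleted, 3 irradiated and 1 sham library. Its log2 change of 1.10 ± 0.34 had a limma adjusted p of 0.0447, and of 0.0596 with no filter on low values. Leaving out sham replicate 1, 3 or 4 or depleted replicate 1, 2 or 3 also ended the call, with a limma adjusted p of up to 0.144. The partner subunit Abcc9 averaged 102.1 ± 8.39 in depleted and 98.3 ± 11.04 in sham libraries (log2 change 0.06, limma adjusted p = 0.812). Cspg4 averaged 28.8 ± 7.02 and 34.4 ± 5.30, Pdgfrb 76.0 ± 11.6 and 84.5 ± 10.8, and Postn 52.3 ± 11.2 and 51.6 ± 14.2 in depleted and sham libraries, none of them called.

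Higd1b stayed between 0 and 3.81 in depleted, between 2.43 and 8.04 in irradiated and between 0 and 2.93 in sham epithelial libraries. Its reads summed to 6, 21 and 5 over the 4 libraries of the depleted, irradiated and sham groups. Trpc6 lay between 1.27 and 6.77 in depleted, 3.24 and 16.1 in irradiated and 2.08 and 9.55 in sham libraries. All but 1 of these 24 values lay below 10, and irradiated replicate 4 was the highest for both genes. In the fit with no filter neither gene was called in any of the 3 comparisons (limma adjusted p of 0.375, 0.612 and 0.858 for Higd1b and of 0.912, 0.72 and 0.677 for Trpc6 in irradiated against sham, depleted against irradiated and depleted against sham mice).

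Markers of other cell types moved alongside the epithelial comparisons. Over all genes, 2.26% were called higher in irradiated and 6.52% in depleted than in sham libraries. Of 10 endothelial genes 4 were called higher in irradiated and 3 in depleted than in sham libraries (limma), and their sum was 2510 to 3632 in depleted, 2706 to 4219 in irradiated and 1690 to 2358 in sham libraries. Of 7 leukocyte genes 3 were called higher in each of these comparisons, with sums of 313 to 455, 303 to 787 and 71.8 to 264 in depleted, irradiated and sham libraries. The smooth muscle sum was 565 to 765, 411 to 1024 and 433 to 692 in the same order of groups, and limma called 0 of 9 tested smooth muscle genes between irradiated and sham mice (2 at an unadjusted p under 0.05, which 14.3% of all genes reached, and 0 with edgeR). Between depleted and sham mice limma called 1 of the 9, Hhip, which was higher in depleted mice, and edgeR called 1. Mesothelial genes had sums of 675 to 1664 in depleted, 412 to 1040 in irradiated and 312 to 404 in sham libraries, and 4 of 5 were called higher in depleted than in sham mice. Of 8 adventitial fibroblast genes limma called 0 in irradiated against sham mice, with 7 at an unadjusted p under 0.05. In depleted against sham mice 3 of the 8 were called higher and 2 lower. Of 8 alveolar fibroblast genes 1, and of 6 epithelial genes 3, were called lower in depleted than in sham mice (4.76% of all genes). Limma called 0 genes of either list between irradiated and sham mice. None of the genes of these lists was at 0 in every library of a group. The part of these cells in the values of Rgs5, Kcnj8, Itga1 and Kcnk3 was not tested.

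**Figure D2:**
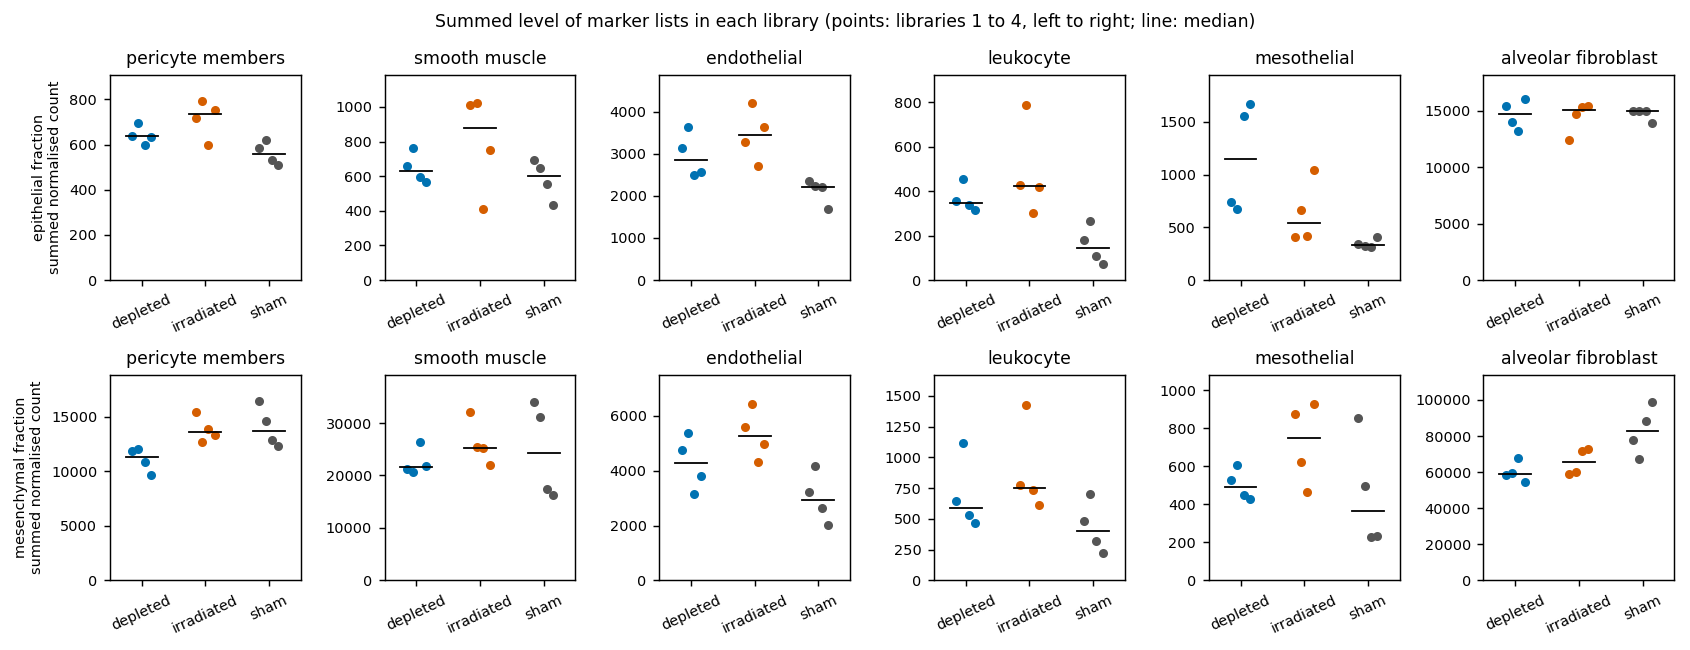
Summed normalised counts (vertical axes, starting at 0) of the 10 pericyte genes and of marker lists of 5 other cell types in the epithelial (top) and mesenchymal (bottom) fraction. Points are the 4 libraries of a group and lines their medians; in the mesenchymal fraction the smooth muscle sums of sham mice fall into 33945 and 31074 against 17429 and 16196.

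In the mesenchymal fraction all 10 genes could be tested. Between irradiated and sham mice limma called 0 of 10, where 3.8% of 16624 genes were called (2.64% higher, 1.15% lower). An unadjusted p under 0.05 was reached by 1 gene (21% of all genes), edgeR called 0 (3.5%), and libraries did not overlap in 0 (11.8%). The 1 gene was Rgs5, with 351, 314, 223 and 233 in irradiated and 234, 231, 142 and 97.3 in sham libraries. Its groups overlapped, and sham replicates 3 and 4 were the low ones (log2 change 0.73 ± 0.26, limma adjusted p = 0.146). Without sham replicates 1 and 2 the log2 change was 1.22 (limma adjusted p = 0.00488), and without sham replicates 3 and 4 it was 0.24 (limma adjusted p = 0.64).

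Without sham replicates 1 and 2, limma called 3 of the 10 genes, Rgs5, Kcnk3 and Cspg4, where 7.27% of all genes were called; without replicates 3 and 4 it called 0, where 0.674% were, and edgeR was not run on these subsets. Kcnk3 had 455, 392, 406 and 462 in irradiated and 499, 473, 268 and 289 in sham mesenchymal libraries. Irradiated libraries lay between the pairs of sham libraries, so the sign depends on which pair is kept: the log2 change was 0.62 (limma adjusted p = 0.0144) against replicates 3 and 4 and -0.18 (limma adjusted p = 0.629) against replicates 1 and 2. Cspg4 had 1291, 986, 912 and 1006 in irradiated and 1144, 1010, 719 and 754 in sham libraries, with the sham libraries split likewise. Its log2 change was 0.50 against replicates 3 and 4 (limma adjusted p = 0.0224) and -0.05 against replicates 1 and 2. In the fit of all sham libraries Pdgfrb, Postn, Abcc9, Higd1b, Itga1 and Kcnj8 had log2 changes of -0.09, -0.04, -0.01, -0.06, -0.09 and 0.01, and Trpc6 -0.16.

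**Figure D3:**
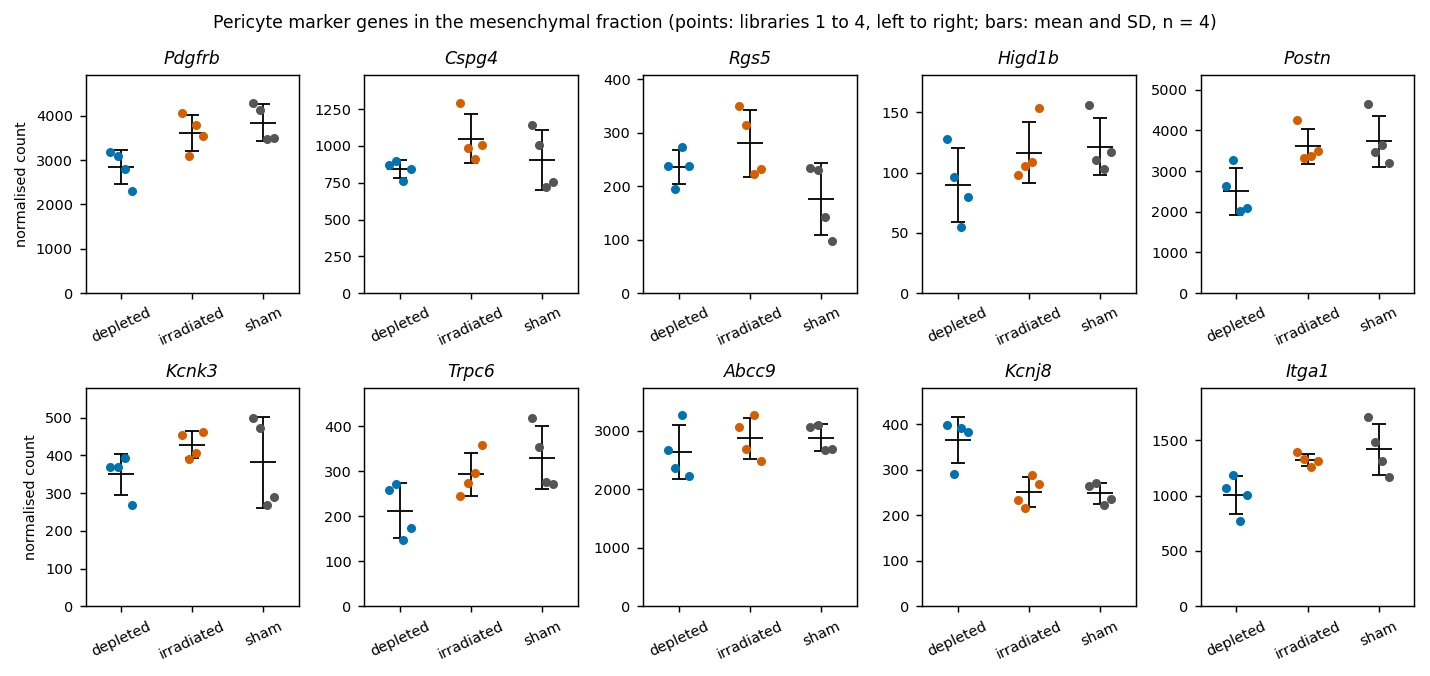
Normalised counts of the 10 genes in the mesenchymal fraction (vertical axes, 1 panel per gene, each starting at 0) in depleted, irradiated and sham mice. Points are the 4 libraries of a group, and lines and bars are the mean and SD; Kcnj8 lies at 291 or more in depleted and at 288 or less in irradiated and sham libraries, while sham libraries of Kcnk3 fall into 499 and 473 against 268 and 289.

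Depleted mice stood apart from irradiated mice in 1 of the 10 mesenchymal genes, Kcnj8, where 2.69% of all genes were called (2.02% higher, 0.674% lower). An unadjusted p under 0.05 was reached by 5 genes (17.9% of all genes), and edgeR called 1 (2.55%). Kcnj8 had 399, 291, 391 and 384 in depleted and 233, 216, 288 and 268 in irradiated libraries. All depleted libraries were above all irradiated libraries, although depleted replicate 2 exceeded the highest irradiated library by little. Mean values were 366 ± 50.7 in depleted and 251 ± 32.6 in irradiated libraries (SD, n = 4 each; log2 change 0.54 ± 0.12, limma adjusted p = 0.0215). The call ended without irradiated replicate 1 or 2 or depleted replicate 1 or 4, with a limma adjusted p of up to 0.0805.

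Cspg4, Postn and Itga1 also had no overlap between depleted and irradiated mesenchymal libraries, and all 3 lay lower in depleted mice without being called; such separation held for 10% of all genes. Postn had 2641, 3265, 2015 and 2102 in depleted and 4248, 3323, 3364 and 3497 in irradiated libraries. Every depleted library was below the lowest irradiated one (log2 change -0.55 ± 0.15, limma adjusted p = 0.0779). Without depleted replicate 2, the highest of its group, Postn was called (log2 change -0.68, limma adjusted p = 0.0156). Itga1 averaged 1006 ± 174 in depleted and 1323 ± 55.9 in irradiated libraries (-0.41, limma adjusted p = 0.104), and Cspg4 843 ± 59.0 and 1049 ± 167 (-0.30, limma adjusted p = 0.287). Pdgfrb averaged 2842 ± 391 and 3620 ± 409 with overlapping libraries (-0.35, limma adjusted p = 0.107). Of the 10 log2 changes 9 were below 0, with a median of -0.33 over the 10 and of -0.0045 over all genes tested, and Kcnj8 was the exception. Several marker lists of other cells also lay mostly below 0 in the same comparison. These were 10 of 10 smooth muscle genes (median -0.22), 17 of 20 other mural genes (-0.19), 9 of 10 endothelial genes (-0.32), 6 of 7 leukocyte genes (-0.29) and 6 of 8 alveolar fibroblast genes (-0.18). Adventitial fibroblast genes were split, with 4 above and 4 below 0 (median -0.07), and 4 of 6 epithelial genes lay above 0 (0.10). The part of other cells in the pericyte values was not tested.

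Compared with sham mice, depleted mice had higher Kcnj8 and lower Pdgfrb, Postn and Itga1 in the mesenchymal fraction, 4 of 10 genes called where 15.2% of all genes were called (8.51% higher, 6.7% lower); edgeR called 4 (15.4% of all genes). Kcnj8 had 264, 271, 223 and 235 in sham libraries, all below the lowest depleted value of 291 (log2 change 0.55 ± 0.12, limma adjusted p = 0.00464). Pdgfrb had 3176, 3093, 2789 and 2311 in depleted and 4286, 4142, 3473 and 3496 in sham libraries. The groups did not overlap (log2 change -0.44 ± 0.11, limma adjusted p = 0.0143), and the call was lost by a narrow margin without sham replicate 1 (limma adjusted p = 0.0506). Postn averaged 2506 ± 577 in depleted and 3737 ± 630 in sham libraries (log2 change -0.59 ± 0.15, limma adjusted p = 0.0195). Its highest depleted library, at 3265, passed the lowest sham library, at 3201, and the call ended without sham replicate 1, without depleted replicate 4 (limma adjusted p of up to 0.0613) or with no filter on low values (0.0667). Itga1 had 1066, 1182, 768 and 1009 in depleted and 1708, 1483, 1313 and 1169 in sham libraries, with a slight overlap (log2 change -0.50 ± 0.13, limma adjusted p = 0.0169).

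The pairs of sham libraries also bore on these calls. Without sham replicates 1 and 2, where 12% of all genes were called, Pdgfrb (log2 change -0.30, limma adjusted p = 0.149), Postn (-0.47, 0.103) and Itga1 (-0.32, 0.142) were no longer called, Kcnj8 was (0.66, 0.00806), and Rgs5 was called higher (0.99, 0.00924). Without sham replicates 3 and 4, where 6.74% of all genes were called, Pdgfrb (-0.58, limma adjusted p = 0.0175) and Itga1 (-0.68, 0.0097) were called, Kcnk3 was called lower (-0.49, 0.0436), and Postn (-0.71, 0.052) and Kcnj8 (0.44, 0.0769) were not. The directions of the 4 genes called with all libraries were the same either way.

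Trpc6 had 258, 271, 148 and 173 in depleted and 418, 353, 276 and 271 in sham mesenchymal libraries. The groups touched without overlapping, and the change was just short of a call (log2 change -0.65 ± 0.21, limma adjusted p = 0.0524). Trpc6 was called without sham replicate 4 (limma adjusted p = 0.0497), depleted replicate 1 (0.0458) or depleted replicate 2 (0.0292). It was not called without sham replicates 3 and 4 together (log2 change -0.90, limma adjusted p = 0.0512) or 1 and 2 together (-0.41, 0.303). With Kcnj8 and Pdgfrb it was one of 3 genes without overlap in this comparison, which held for 19.3% of all genes. Higd1b averaged 89.8 ± 30.6 in depleted, 117 ± 25.1 in irradiated and 122 ± 23.8 in sham libraries (depleted against sham: log2 change -0.48, limma adjusted p = 0.172). Abcc9 averaged 2635 ± 461, 2878 ± 351 and 2884 ± 230 in the same 3 groups, with a log2 change of -0.14 ± 0.11 between depleted and sham mice (limma adjusted p = 0.446). Neither gene was called without either pair of sham libraries: the log2 change without replicates 3 and 4 was -0.61 for Higd1b and -0.24 for Abcc9, and without replicates 1 and 2 it was -0.35 and -0.043.

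Of the 2 subunits of the ATP-sensitive channel, Kcnj8 was thus called higher in depleted mesenchymal libraries and its neighbour Abcc9 was not called, and the difference between the 2 genes was not tested. Their upstream windows are given because the genes lie side by side and form 1 channel. Both are RefSeq promoter sequence on GRCm38.p6 on the minus strand, Kcnj8 from chr6:142571615-142571864 and Abcc9 from chr6:142702316-142702524, cut to the 209 bases before its annotated start. Capitals in Abcc9 mark TGGGAA, the core letters bound by the Notch factor RBPJ, and the overlapping reverse complement of CATTCC, the core letters bound by TEAD factors.
Kcnj8: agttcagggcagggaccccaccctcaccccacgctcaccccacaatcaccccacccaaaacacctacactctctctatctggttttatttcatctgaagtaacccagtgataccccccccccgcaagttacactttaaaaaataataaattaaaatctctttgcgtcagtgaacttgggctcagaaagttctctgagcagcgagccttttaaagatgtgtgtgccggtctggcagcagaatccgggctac
Abcc9: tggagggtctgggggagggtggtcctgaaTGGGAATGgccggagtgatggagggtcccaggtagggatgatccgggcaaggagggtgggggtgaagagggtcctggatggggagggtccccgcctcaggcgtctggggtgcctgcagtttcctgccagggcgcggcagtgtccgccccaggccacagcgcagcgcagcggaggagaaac
Abcc9 had 1 match to TGGGAA and 1 to CATTCC, found on either strand in 18.6% and 11.03% of promoter windows of that length. Kcnj8 had no match to these motifs, to TATAAA or to the p53 decamer. RefSeq promoter entries were matched for 7 of the 10 genes.

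**Figure D4:**
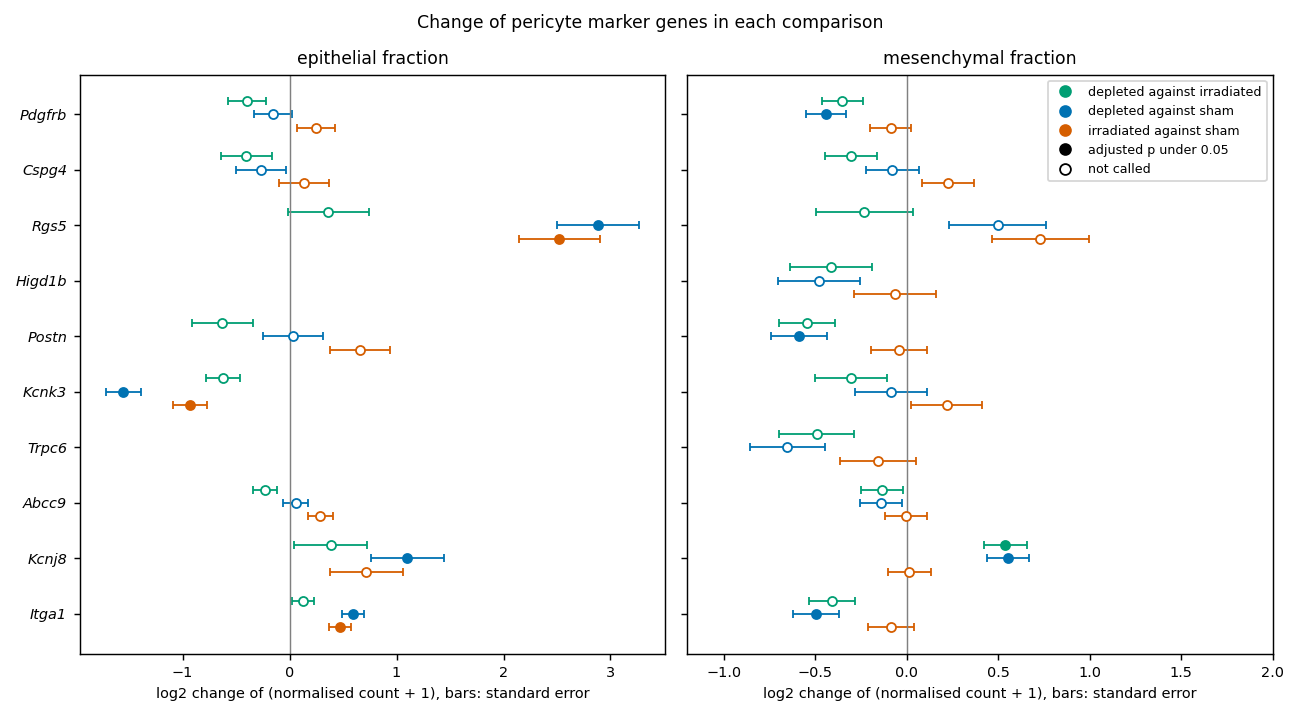
Log2 changes of normalised count + 1 (horizontal axis) of the tested genes in the epithelial (left) and mesenchymal (right) fraction, with standard errors. Filled points have a limma adjusted p under 0.05; epithelial Rgs5 stands at 2.88 and 2.52, Kcnk3 at -1.55 and -0.93 and Kcnj8 at 1.10, and Rgs5 entered the filtered test only through the groups where it was high.

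Whether irradiation acted differently on a gene in the 2 fractions was tested as the epithelial minus the mesenchymal log2 change, in a fit of all 24 libraries over 15092 genes. That fit treated the libraries as independent, although both fractions were sorted from each lung. Kcnk3 was the 1 gene called of 8 tested, where 0.629% of all genes were called. Its difference was -1.15 ± 0.23 (SE, limma, adjusted p = 0.0141), with a log2 change of -0.93 in the epithelial and 0.22 in the mesenchymal fraction. The call held whichever single library was left out (limma adjusted p 0.00467 to 0.0409), but not without mesenchymal sham replicates 3 and 4 together, when the difference was -0.75 (limma adjusted p = 0.11). Without mesenchymal sham replicates 1 and 2 it was -1.55 (limma adjusted p = 6.98e-05). Rgs5, 1 of the 8, had a difference of 1.79 ± 0.49, and of 0.82 after adding 8. It passed the filter only through its irradiated and depleted epithelial libraries, where it was higher, so its p is not given. Itga1 had a difference of 0.56 ± 0.17 (limma adjusted p = 0.134). With the replicate number as a block limma called Itga1, as given further below. The labels do not say that this number marks a shared mouse. For depleted against irradiated mice limma called 0 of 8 differences (0.596% of all genes) and edgeR 0 (0.583%). The only unadjusted p under 0.05 among the 8 (11.3% of all genes) was that of Itga1, with a difference of 0.53 ± 0.17 (limma adjusted p = 0.198).

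Ratios of reads within a library do not depend on the scale of a table. Per 100 reads of Pdgfrb, Kcnk3 had 34.5 ± 10.1 in depleted, 40.5 ± 11.7 in irradiated and 90.6 ± 8.38 in sham epithelial libraries (SD, n = 4 each). In the mesenchymal fraction the Kcnk3 ratio was 12.3 ± 1.18, 11.9 ± 1.12 and 9.76 ± 2.06 in depleted, irradiated and sham libraries. All epithelial Kcnk3 ratios thus lay above all mesenchymal ones. Itga1 per 100 Pdgfrb reads was 399 ± 86.8, 282 ± 85.8 and 234 ± 27.1 in depleted, irradiated and sham epithelial libraries, against 35.7 ± 6.85, 36.9 ± 4.31 and 36.7 ± 2.74 in the mesenchymal groups. Rgs5 had 45.3 ± 9.33, 28.9 ± 16.1 and 5.18 ± 3.49 per 100 Pdgfrb reads in the epithelial groups in that order. In the mesenchymal groups the Rgs5 ratio was 8.46 ± 1.89, 7.81 ± 1.95 and 4.48 ± 1.32.

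Sham epithelial libraries therefore held Rgs5 and Pdgfrb in a ratio near the mesenchymal one, and depleted and irradiated epithelial libraries held more Rgs5 per Pdgfrb than any mesenchymal library. Cspg4 and Postn kept nearer to the mesenchymal proportions. Cspg4 had 37.6 ± 5.42, 38.0 ± 6.32 and 41.2 ± 8.60 per 100 Pdgfrb reads in depleted, irradiated and sham epithelial libraries and 30.1 ± 4.37, 29.0 ± 3.68 and 23.3 ± 2.73 in mesenchymal ones. Postn had 68.3 ± 5.197, 81.0 ± 13.3 and 61.7 ± 18.8 in the epithelial and 88.0 ± 14.01, 99.9 ± 8.25 and 97.1 ± 11.5 in the mesenchymal groups. Kcnj8 per 100 Pdgfrb reads was 13.1 ± 3.01 in depleted, 6.98 ± 0.87 in irradiated and 6.46 ± 0.24 in sham mesenchymal libraries. Its lowest depleted ratio, 9.39, was above the highest irradiated one, 7.60. These ratios were not tested.

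**Figure D5:**
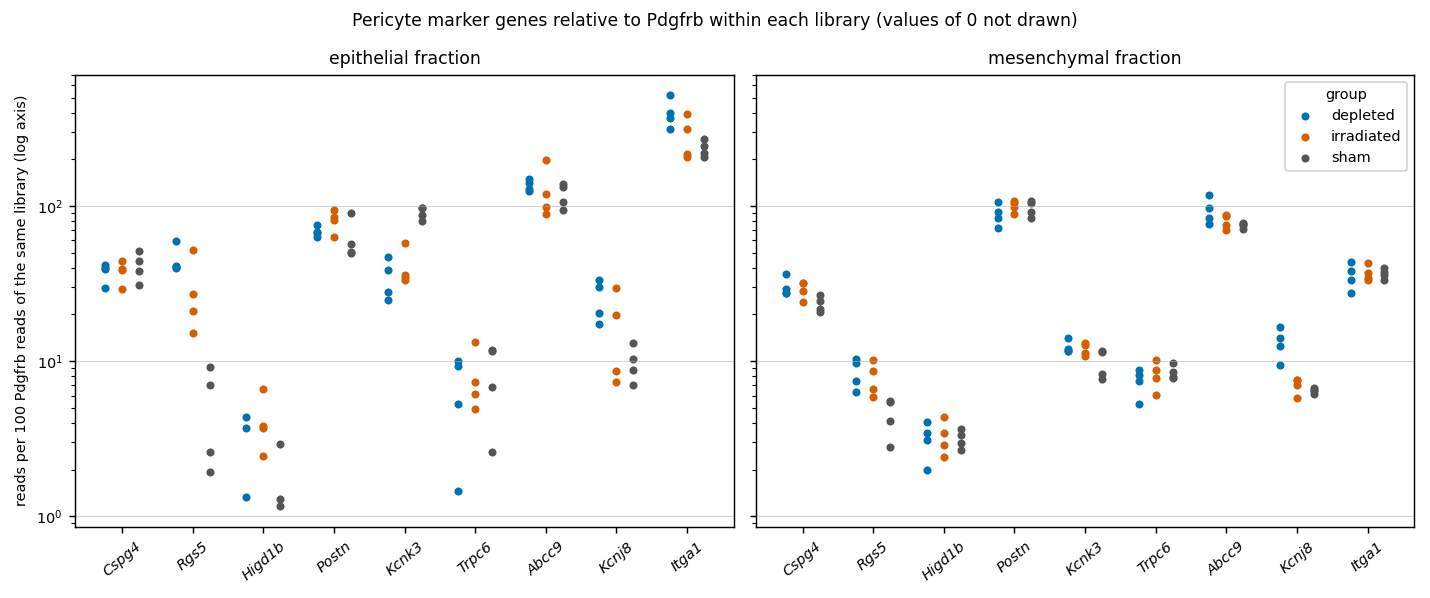
Reads of 9 pericyte genes per 100 reads of Pdgfrb in the same library (vertical log axis) in the epithelial (left) and mesenchymal (right) fraction; each point is 1 library of depleted, irradiated or sham mice. Kcnk3 and Itga1 lie higher in the epithelial than in the mesenchymal fraction in every library, and Rgs5 is at 15.2 or more in both irradiated epithelial groups and at 9.21 or less in sham.

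A list of 20 other mural genes was set beside the 10. In the epithelial fraction 15 could be tested, and Mcam, an adhesion molecule of mural and endothelial cells, was the only one called in irradiated against sham mice (150 in irradiated and 60.3 in sham libraries, log2 change 1.27 ± 0.21, limma adjusted p = 0.00361). It was also the only one called in depleted against sham mice (145 in depleted libraries, log2 change 1.27, limma adjusted p = 0.00153). Over all genes, 3.14% were called in irradiated and 11.3% in depleted against sham mice. Between depleted and irradiated mice limma and edgeR called 0 of the 15, with 2 at an unadjusted p under 0.05 (12.4% of all genes). Over the 8 pericyte genes that could be tested, Rgs5 among them only through its higher groups, the median epithelial log2 change was 0.38 in irradiated against sham mice, -0.32 in depleted against irradiated and 0.04 in depleted against sham mice, and that of the other mural genes was 0.19, -0.13 and 0.10. Over all genes tested these medians were within 0.01 of 0.

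In the mesenchymal fraction all 20 other mural genes were tested. Irradiated and sham mice differed in 0 of them by limma and by edgeR, with 4 at an unadjusted p under 0.05 (21% of all genes). Without sham replicates 1 and 2 limma called 3 of them higher in irradiated mice, where 5.78% of all genes were higher. Without replicates 3 and 4 it called 0. Depleted and irradiated mice differed in 2 of the 20, both lower in depleted mice, where 0.674% of all genes were lower. Ebf1, a transcription factor, and Pde5a, which breaks down cyclic GMP, were lower in depleted than in irradiated libraries (460 and 644 for Ebf1, log2 change -0.49, limma adjusted p = 0.0227; 2938 and 4060 for Pde5a, -0.47, 0.0293). Against sham mice, 6 of the 20 were lower and 1 was higher in depleted mice, where 6.7% of all genes were lower and 8.51% higher. The lower ones included Pde5a (log2 change -0.70, limma adjusted p = 0.000472) and both subunits of the nitric oxide receptor, Gucy1a1 (-0.65, 0.00695) and Gucy1b1 (-0.46, 0.036). Rasl12 (-0.47), Foxs1 (-0.49) and P2ry14 (-0.69) were the other 3, with limma adjusted p of 0.00451, 0.0292 and 0.012. Lamc3, a laminin chain, was higher, with 730 in depleted and 529 in sham libraries (log2 change 0.46, limma adjusted p = 0.00168). Lamc3, Rasl12 and Pde5a were also called without either pair of sham libraries; Foxs1 was not called in either case (limma adjusted p = 0.119 both times), and Gucy1a1, Gucy1b1 and P2ry14 were called without replicates 3 and 4 but not without replicates 1 and 2 (limma adjusted p = 0.0661, 0.263 and 0.0961). The median log2 change between depleted and sham mice was -0.29 over the 10 pericyte genes and -0.21 over the 20 other mural genes.

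The second list held 17 ligands, receptors and partner subunits. In the epithelial fraction 13 were tested. Limma called 1 of the 13 in irradiated against sham mice (3.14% of all genes). It called 1 in depleted against irradiated mice (0.475% of all genes) and 3 in depleted against sham mice (11.3%). Tie1, an endothelial receptor, was higher in irradiated mice (102 in irradiated and 39.8 in sham libraries, log2 change 1.28, limma adjusted p = 0.0167). Rgs4, of the same family as Rgs5, had 58.4, 63.6, 117 and 69.4 in depleted, 10.8, 29.2, 15.4 and 33.8 in irradiated and 5.85, 14.9, 14.3 and 8.33 in sham epithelial libraries. Every depleted library was above all others, and Rgs4 was called higher against irradiated (log2 change 1.83 ± 0.36, limma adjusted p = 0.0366) and against sham mice (2.75, 0.000165). Pdgfa, a ligand of the related receptor Pdgfra, and Angpt2, which acts on endothelial Tek, were lower in depleted than in sham epithelial libraries (log2 change -0.31 and -0.68, limma adjusted p = 0.026 and 0.035).

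Of the 15 partners tested in the mesenchymal fraction, limma and edgeR called 0 in irradiated against sham and 0 in depleted against irradiated mice, with 7 at an unadjusted p under 0.05 in each (21% and 17.9% of all genes). Without sham replicates 1 and 2 limma called 4 of them higher and 2 lower in irradiated than in sham mice. Over all genes 5.78% were higher and 1.49% lower there. Without replicates 3 and 4 it called 0 partners in that comparison. Between depleted and sham mice Pdgfc, a PDGF ligand, was called higher (71.8 in depleted and 31.5 in sham libraries, log2 change 1.06, limma adjusted p = 0.0161). Trpc1, a channel subunit related to Trpc6, was lower (365 in depleted and 485 in sham libraries, log2 change -0.40, limma adjusted p = 0.00592), and so was Angpt2 (338 in depleted and 580 in sham libraries, -0.85, 0.0283). Trpc1 was also called without either pair of sham libraries, while Pdgfc (limma adjusted p = 0.115 without replicates 3 and 4 and 0.0576 without 1 and 2) and Angpt2 (0.0965 and 0.16) were not.

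Mesenchymal markers of other cells moved as well. The alveolar fibroblast sum was 54591 to 68058 in depleted, 58842 to 72776 in irradiated and 67125 to 99048 in sham libraries, and 5 of its 8 genes were called lower in depleted than in sham mice (6.7% of all genes), 1 without sham replicates 3 and 4 and 7 without replicates 1 and 2. Of 6 epithelial genes, Krt8 was called higher in irradiated and Cdh1, Krt8 and Krt18 in depleted than in sham libraries (2.64% and 8.51% of all genes), with sums of 2502 to 3910 in depleted, 2891 to 4907 in irradiated and 1429 to 3072 in sham libraries. Without sham replicates 3 and 4 limma called 0 of the 6 higher in irradiated and 1 in depleted against sham mice. Without replicates 1 and 2 it called 6 and 5 higher. Wt1 of 5 mesothelial, Fcer1g of 7 leukocyte and Mfap5 of 8 adventitial fibroblast genes were the others called in depleted against sham mice, with Mfap5 lower and Wt1 and Fcer1g higher. Without sham replicates 3 and 4 none of these was called (limma adjusted p = 0.167, 0.164 and 0.0913 for Wt1, Fcer1g and Mfap5). Without replicates 1 and 2 Fcer1g (limma adjusted p = 0.00339) and Mfap5 (0.0101) were called and Wt1 (0.0686) was not. Endothelial sums were 3169 to 5372, 4311 to 6447 and 2011 to 4181 in depleted, irradiated and sham libraries, with 0 of 10 genes called by limma or edgeR. An unadjusted p under 0.05 was reached by 9 in irradiated and 6 in depleted against sham mice (21% and 29.2% of all genes). Without sham replicates 1 and 2 limma called 7 and 6 of them higher (5.78% and 7.67% of all genes). Without replicates 3 and 4 it called 0 in either comparison. The part of all these other cells was not tested.

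After removal of the group means, the mesenchymal genes that ran most closely with the mean of the 10 over the 12 libraries were Ltbp2, Plxnb1, Notch3, Gjc1, Neurl1b, Rtn4rl1, Aplp1, Nes, Lhfp and Pcdh1, with Pearson r of 0.94 down to 0.88 on the log2 scale. Among the 10 themselves, Cspg4 (r = 0.81 with the mean of the others), Kcnk3 (0.80), Pdgfrb (0.76) and Itga1 (0.73) ran together, while Abcc9 and Kcnj8 (0.15 each) did not follow. The libraries share depth and sham pairs, so these values are descriptions with no test. In the epithelial fraction the closest genes were Syk, Dock10, Cd79b, Prex1, Slc16a3, Itgb2, Rbm43, Efcab2, 9930111J21Rik2 and Hip1, with r of 0.93 down to 0.84, and Kcnk3 ran against the other 7 (r = -0.46).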

How the data were processed

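RNA was sequenced from 24 libraries of sorted mouse lung cells, 4 per group. Per the submitters' processing notes, cutadapt 1.5, STAR 2.2.2a, SAMtools 1.8, RSEM 1.3.0 and DESeq2 were used with genome build GRCm38; the order of steps and the annotation are not given in the sources used here. The deposited signal, 1 table per fraction, is a normalised count: from the values, every entry is a whole multiple of 1 step per library within 0.001, so the authors divided gene counts by 1 factor per library. Whole reads were recovered for 100% of values; in 2 of 24 libraries, mesenchymal sham replicate 3 and depleted replicate 4, the step lies within 1% of 1, where multiples are harder to tell from values left unscaled. Each table has its own scale, so tests were made within a table.

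Symbols and positions came from GENCODE M21, which named 48349 of 48795 identifiers. The main test was limma 3.58.1 (trend, robust) in R 4.3.3 on log2(value + 1), for genes with at least 10 in at least 4 of 12 libraries, with the 3 groups in 1 fit. Errors of log2 changes are standard errors of that fit, and log2(value + 1) understates changes of low genes. Alternatives were a pseudocount of 0.5 or 8, no filter, edgeR 4.0.16 on recovered reads, the replicate number as a block, each library left out, and, chosen after seeing the data, pairs of mesenchymal sham libraries left out (limma alone) and a block by condition and number. The scripts were tested on simulated data. In each group, pairs of libraries (36 in all) differed by more than counting error (chi-square per degree of freedom 2.25 to 13.1). The labels give 4 mice per group and no batch.

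The 10 genes and the lists were chosen with earlier results of these data known. Other genes were named if they were on 1 of the 2 lists and called, or were among the 10 protein-coding genes with a mean of at least 50 most correlated with the 10; 1 called gene of the lists is not reported here.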

Additional observations from a re-analysis of the deposited data

Results flagged for a closer look

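Among 60 sets of 4 libraries, 3 had 1 library whose distance to the nearest other as a share of the range exceeded Dixon's 95% critical value; chance alone marks about 1 in 20 such sets. Pdgfrb was highest in epithelial sham replicate 1, at 100.5 against 80.6, 76.8 and 80.1 in the other sham libraries. Itga1 was highest in epithelial irradiated replicate 2, at 323 against 262, 255 and 252. Kcnj8 was lowest in mesenchymal depleted replicate 2, at 291 against 399, 391 and 384.

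The change of Kcnk3 between irradiated and sham mice differed between the fractions, by -1.15 on the log2 scale (epithelial minus mesenchymal, limma adjusted p = 0.0141). Without mesenchymal sham replicates 3 and 4 the difference was -0.75 (limma adjusted p = 0.11).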

How the results depend on the processing

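Calls of single genes that ended under 1 alternative are given beside the results. Over all genes, the replicate block gave 1048 calls in mesenchymal irradiated against sham mice, against 631 without it. For the members it gave 3 mesenchymal calls in depleted against irradiated mice, against 1, adding Postn (limma adjusted p = 0.0249) and Itga1 (0.0356), and took away epithelial Kcnj8 in depleted against sham mice (0.0633). For the difference between fractions in irradiated against sham mice, the block gave 211 genes and 3 members, against 95 and 1. A block by condition and number, chosen after seeing the data, gave 218 and 3, and edgeR gave 153 genes. Both blocks added Rgs5 and Itga1, with a limma adjusted p for Itga1 of 0.0483 (first block) and 0.0271 (second block). Rgs5 passed the filter of these fits only through its irradiated and depleted epithelial libraries, so its p is not given. The labels do not say that a replicate number marks a shared mouse: same-numbered libraries correlated at -0.11 to 0.17 within a table (8 of 24 best with their own number) and -0.04 to 0.25 across tables (9 of 12). No filter gave 59 genes for the difference in depleted against irradiated mice, against 90.

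Without mesenchymal sham replicates 3 and 4 the genes called were 112 in irradiated against sham mice (631 with all) and 1120 in depleted against sham mice (2528 with all). Without replicates 1 and 2 they were 1209 in irradiated against sham mice, with 3 members, and 2 members (Rgs5 and Kcnj8) were called in depleted against sham mice, against 4. For the difference between fractions in irradiated against sham mice, without replicates 3 and 4 the calls were 26 genes and 0 members, with the sign turned for Cspg4 (0.18), and without replicates 1 and 2 they were 509 genes, against 95. Signs turned in irradiated against sham mice without replicates 3 and 4 for Cspg4 (-0.048), Kcnk3 (-0.18) and Kcnj8 (-0.096), and without replicates 1 and 2 for Pdgfrb (0.048), Higd1b (0.062), Postn (0.073), Trpc6 (0.086), Abcc9 (0.092) and Itga1 (0.093). In depleted against sham mice they turned without replicates 1 and 2 for Cspg4 (0.19) and Kcnk3 (0.31). The cause was not tested.

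Leaving out each library in turn gave 214 to 653 genes (epithelial irradiated against sham), 36 to 199 (epithelial depleted against irradiated), 1187 to 1934 (epithelial depleted against sham), 184 to 1073, 182 to 806 and 1571 to 2732 (the same comparisons in the mesenchymal table), and 48 to 334 and 43 to 152 for the differences between fractions in irradiated against sham and depleted against irradiated mice. Members called ran from 0 to 1 (epithelial depleted against irradiated), 0 to 2 and 2 to 5 (mesenchymal depleted against irradiated and against sham) and 1 to 2 (difference, irradiated against sham). The gene added in the difference was Rgs5, which passed the filter only through its higher epithelial groups. Sign changes were seen only in uncalled genes. Epithelial log2 changes in depleted against sham mice ran from -0.087 to 0.20 for Postn and -0.0078 to 0.12 for Abcc9, and in irradiated against sham mice from -0.035 to 0.31 for Cspg4. Mesenchymal changes in irradiated against sham mice ran from -0.071 to 0.060 for Abcc9, -0.20 to 0.062 for Higd1b, -0.18 to 0.0071 for Itga1, -0.054 to 0.083 for Kcnj8 and -0.12 to 0.066 for Postn, and in depleted against sham mice from -0.18 to 0.041 for Cspg4 and -0.24 to 0.060 for Kcnk3. Differences between fractions in depleted against irradiated mice ran from -0.17 to 0.013 for Abcc9, -0.27 to 0.079 for Cspg4, -0.36 to 0.021 for Kcnj8, -0.25 to 0.047 for Pdgfrb and -0.39 to 0.091 for Postn, and in irradiated against sham mice from -0.26 to 0.083 for Cspg4. Depth limits Higd1b and Trpc6 in the epithelial table, which were tested there only without a filter, and Rgs5 and Kcnj8 there, which rest on 10 or fewer reads in each sham library.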
